A study of Mus musculus with 20 samples.

Results

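The genes described here are 34 genes of DNA replication and S phase, taken by name from the 28029 gene columns used of 4 single-cell RNA tables and not chosen by their values. They were followed in CD8 T cells, macrophages and melanoma cells taken from mouse tumours. A cell that enters S phase first licenses its origins: Cdc6 and Cdt1 load the Mcm2 to Mcm7 helicase onto DNA in G1. Cyclin E kinase and E2F then switch the cell into S phase, where Cdc45 and the GINS complex turn the helicase on, primase and polymerases copy the strands, the clamp Pcna holds the polymerases on DNA, and ribonucleotide reductase and thymidylate synthase supply nucleotides. Most of these genes are E2F targets whose mRNA peaks between late G1 and mid S phase, so in activated T cells, which divide fast, their mRNA marks cells in or near S phase.

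The 4 libraries are 4 groups of 1 library each. Tet2 knockout or wild-type CD8 T cells carrying the OT-I receptor, which recognises ovalbumin, were transferred into mice with B16-OVA melanoma, a mouse melanoma line engineered to make ovalbumin, and tumour-infiltrating cells were taken on day 8 with or without anti-PD-L1. The knockout cells came from a cross of Tet2-/- and OT-I mice, so the deletion was not limited to T cells in the donors. The groups were knockout with anti-PD-L1, wild-type with anti-PD-L1, knockout without it and wild-type without it, called treated and untreated below. The genotype belongs to the transferred T cells. The genotype, age and number of host mice, and what the control mice received, were stated in no source used here. With 1 library per group no difference could be tested against the spread between mice: every interval below is exact, at 95%, and covers counting error only, and genotype, mouse, tumour and library cannot be told apart.

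Droplet libraries (10x Chromium 3′ chemistry) were counted as UMIs, each standing for 1 captured molecule. After filtering, 1277, 1603, 2221 and 2297 cells remained in treated knockout, treated wild-type, untreated knockout and untreated wild-type. Of these, 1028, 1321, 1556 and 1124 were CD8 T cells, with 8040502, 8213255, 7998482 and 4852641 UMIs and a median of 6835, 5424, 4404 and 3750.0 UMIs per cell. Cd8a or Cd8b1 was seen in 99.03%, 98.5%, 98.5% and 96.8% of them. The untreated wild-type library stood apart. Melanoma-like cells made up 40.4% of its kept cells, against 3.92% to 8.55% in the other 3, and most of its CD8 T cells formed clusters of their own, although the members and other cell cycle genes had been left out of the clustering. Any pair of libraries shared 1 to 10 barcodes. At least 1 UMI of 4 Y-linked genes was present in 0.0%, 14.2%, 0.129% and 10.9% of CD8 T cells, and the sex of the donors is not stated, so donor sex and genotype cannot be told apart. Tet2 itself was at 17.9, 15.8, 23.0 and 13.4 CPM (UMIs of a gene when all UMIs of a cell class in a library are scaled to 1000000). Which part of Tet2 the allele removes is not given, and counts from the 3′ end do not check the genotype if that end is kept.

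In CD8 T cells the members summed to 3271 CPM in treated knockout cells, 2598 in treated wild-type, 3704 in untreated knockout and 4778 in untreated wild-type. The order was nearly the same gene by gene. Of the 34 members, 30 were highest in untreated wild-type cells and 31 were lowest in treated wild-type cells. The full order of the sums held for 23 single members. The 4 that were not highest in untreated wild-type cells were Cdt1, E2f1, Ccne1 and Ccne2, all of which act before or at the entry into S phase. Cdc6 and Mcm2 to Mcm7, which are also loaded or act before it, were highest in untreated wild-type cells. Between the untreated genotypes the counting intervals of E2f1, Ccne1 and Ccne2 include no difference, and Ccne2 had a mean of only 10.3 CPM. No such counts were made over all genes. The median of all genes with a mean of at least 20 CPM was also lower in untreated knockout than in untreated wild-type cells, at a log2 ratio of -0.10. It was -0.18 for treated against untreated wild-type cells. UMIs from the 3′ end are not divided by gene length, and 3 members, 2810417H13Rik, Dut and Slbp, gave 36.6%, 37.0%, 38.5% and 35.2% of the members' UMIs in the 4 libraries, so sums lean on them and gene-by-gene values are given below.

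**Figure D1:**
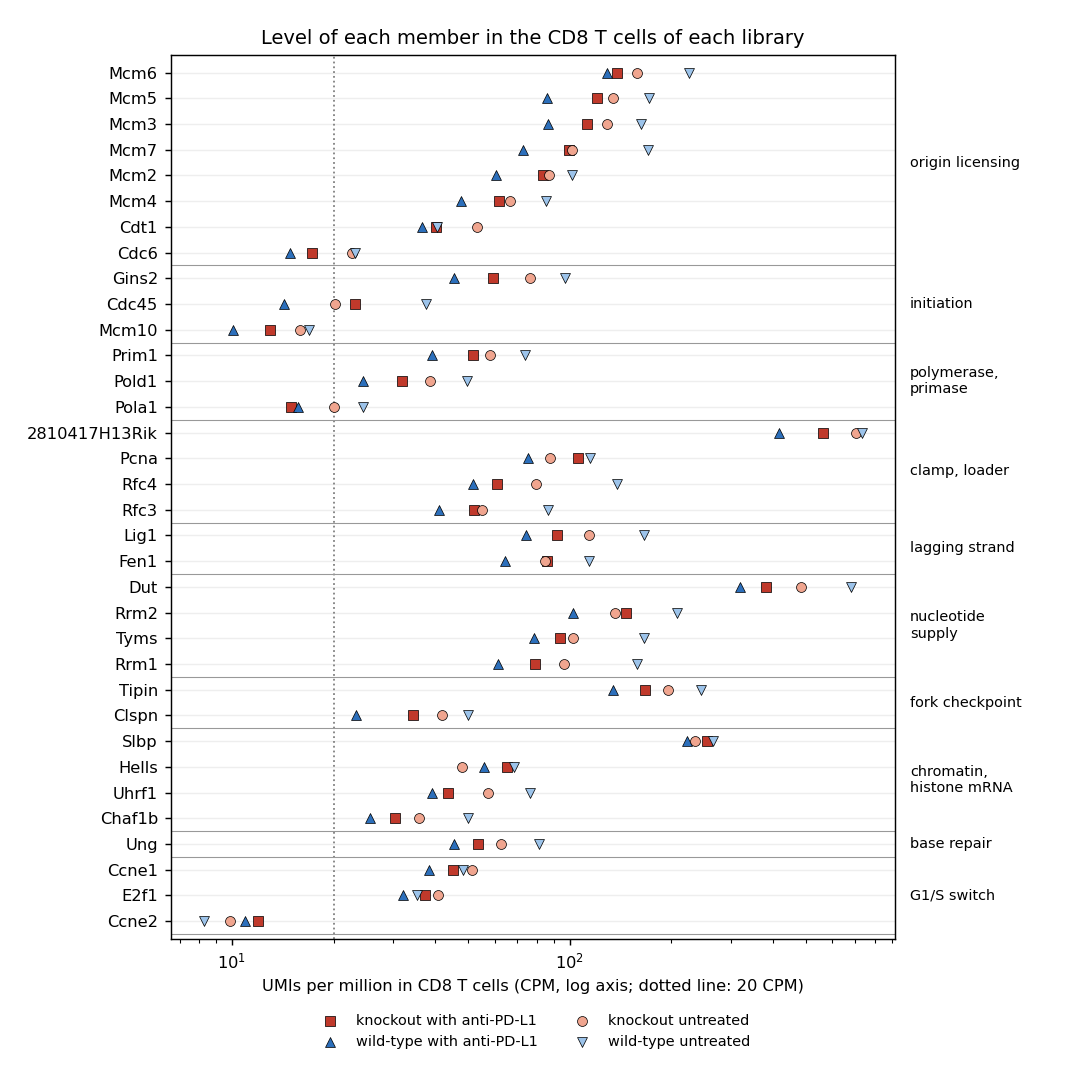
Level of each of the 34 members (rows, grouped by role) in the CD8 T cells of the 4 libraries (symbols), in CPM on a log axis, with the 20 CPM minimum dotted. Untreated wild-type cells (light blue) lie farthest right for 30 members and treated wild-type cells (dark blue) farthest left for 31, and Cdt1, E2f1, Ccne1 and Ccne2 are the 4 not highest in untreated wild-type cells.

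The sums could differ because more cells express the members or because each expressing cell holds more, so both were measured in single cells. Every CD8 T cell was thinned to 2600 UMIs, which left out 21, 78, 151 and 219 shallower cells and kept 1007, 1243, 1405 and 905. A cell with at least 10 UMIs of the members was called high. High cells made up 30.1% (27.3% to 33.03%) of treated knockout cells, 21.6% (19.3% to 24.0%) of treated wild-type, 40.4% (37.8% to 43.0%) of untreated knockout and 68.3% (65.1% to 71.3%) of untreated wild-type cells. None of the 4 intervals overlap. Without thinning, the shares were 57.0%, 40.2%, 56.9% and 73.8%, and the deeper treated knockout cells reached the untreated knockout share. For scale, macrophage-like cells of the same libraries, thinned the same way, were high in 5.03%, 1.83%, 3.91% and 8.90%.

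The level per high cell differed far less. High cells held a mean of 14.9 (14.5 to 15.3) member UMIs in treated knockout, 14.9 (14.4 to 15.4) in treated wild-type, 15.4 (15.1 to 15.7) in untreated knockout and 15.8 (15.4 to 16.1) in untreated wild-type cells. Part of that likeness comes from the line itself, which leaves out the same low values in each library: with the line at 5 UMIs the means were 11.6, 11.1, 12.2 and 13.6, and with it at 20 UMIs 22.3, 23.7, 23.2 and 23.1. The shares kept their order at both lines, at 51.6%, 40.5%, 65.4% and 90.9% for 5 UMIs and 5.06%, 3.22%, 6.41% and 14.4% for 20 UMIs. The cells under the line were not empty either. They held 3.41 member UMIs in treated knockout, 2.88 in treated wild-type, 4.13 in untreated knockout and 5.92 in untreated wild-type cells. Cells with no member UMI at all made up 7.55%, 13.4%, 4.13% and 0.552%. The counts form a continuous range with no gap at the line, and 19.1%, 15.04%, 22.1% and 30.6% of cells held 8 to 12 member UMIs. High is therefore a range of values and not a cell type.

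**Figure D2:**
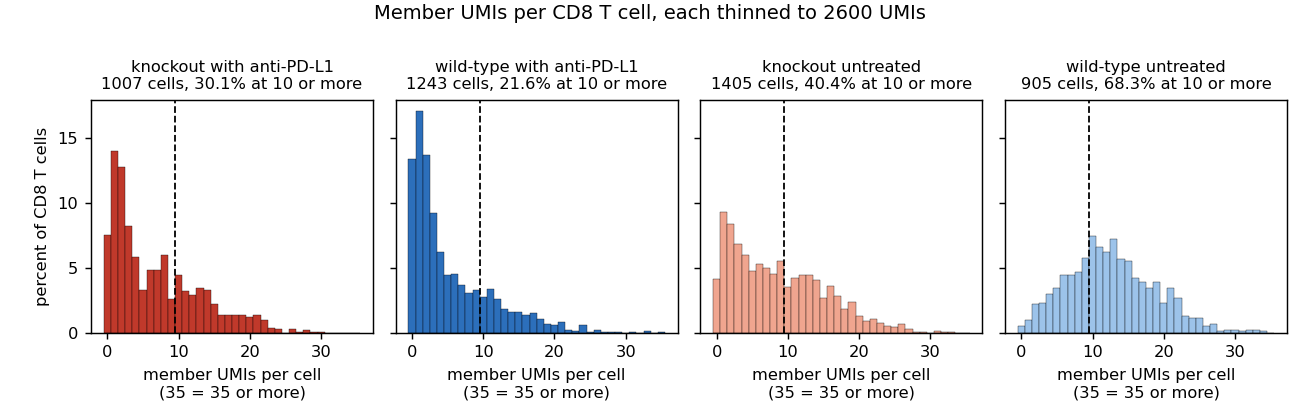
Distribution of the members' UMIs per CD8 T cell in each library after thinning to 2600 UMIs (x axis, UMIs of the 34 members; y axis, percent of cells; dashed line, the line at 10). Treated wild-type cells pile up at 0 to 3 UMIs, and untreated wild-type cells form a single hump whose median is 12, against 5, 3 and 8 in treated knockout, treated wild-type and untreated knockout cells.

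The same split was made for each member without letting it choose its own cells. Over the 30 members with a mean of at least 20 CPM, the share of cells with a UMI of the gene differed between untreated knockout and untreated wild-type cells by a median log2 ratio of -0.52, while UMIs per cell with a UMI differed by -0.06 and UMIs per cell called high by the other 33 members by -0.16. Between treated knockout and treated wild-type cells the medians were 0.38, 0.01 and -0.05 in that order. Between treated and untreated wild-type cells they were -1.20, -0.07 and -0.19, and between treated and untreated knockout cells -0.29, -0.01 and -0.05. Of these 3 measures the median share of cells with a UMI differed most in all 4 comparisons. A further measure, UMIs of the gene per cell not called high, had medians of -0.61, 0.44, -1.45 and -0.20 in the same order of comparisons, further from 0 than the share in the first 3. The level among the cells under the line thus differed along with the share, and the level among high cells differed little. Here too part of the likeness among high cells comes from the line, which leaves out cells with low totals of the other members. A detected cell of most members held close to 1 UMI at this depth, which leaves the level per detected cell little room to move. Single members varied. Tyms was seen in 13.9%, 13.4%, 19.6% and 33.5% of treated knockout, treated wild-type, untreated knockout and untreated wild-type cells, and cells high by the other members held 0.402, 0.514, 0.449 and 0.515 Tyms UMIs. Between the untreated genotypes its share differed more than its level per high cell, while between the treated genotypes its share was nearly level and its level per high cell lower in knockout. The intervals of that level overlapped, at 0.333 to 0.481 in treated knockout and 0.430 to 0.609 in treated wild-type cells.

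Some members differed within high cells too. In high cells of the untreated libraries the counting intervals of knockout and wild-type overlapped for 26 members, lay lower in knockout for 5 (Mcm7, Rrm1, Dut, Hells and Rfc4) and higher in knockout for 3 (Cdc6, Cdt1 and 2810417H13Rik). The same was not counted over all genes, so whether the members stand out in this is not known. Rfc4 held 0.283 (0.240 to 0.331) UMIs per high cell in untreated knockout and 0.444 (0.393 to 0.501) in untreated wild-type. Cdt1, whose protein is destroyed once S phase begins, held 0.194 (0.159 to 0.234) in untreated knockout and 0.116 (0.0905 to 0.146) in untreated wild-type. E2f1 had overlapping intervals, at 0.186 (0.152 to 0.225) in untreated knockout and 0.133 (0.106 to 0.165) in untreated wild-type.

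High cells also carried mitosis mRNA, but it was not particular to them. With the same line of 10 UMIs over 50 mitosis genes, 36.8%, 29.4%, 53.7% and 84.5% of CD8 T cells of treated knockout, treated wild-type, untreated knockout and untreated wild-type were mitosis-high, and 69.6%, 71.6%, 79.7% and 89.8% of the cells high for the members were among them. In untreated wild-type cells, high cells held a mean of 21.3 mitosis UMIs and cells under the member line 23.1. In each of the other libraries high cells held more, such as 18.9 against 12.5 in untreated knockout cells. Cells that were mitosis-high alone made up 15.9%, 13.9%, 21.5% and 23.2%. Cells high for the members alone made up 9.14%, 6.11%, 8.19% and 6.96%. That share spans a much narrower range than the share of all high cells, and untreated wild-type cells did not lead it. But 84.5% of untreated wild-type cells passed the mitosis line, which leaves little room for cells high for the members alone. Neither the range nor the order of that share can therefore be read as a difference in S phase.

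Origin licensing genes came first in the order of events. Mcm2 to Mcm7 are the 6 subunits of the replicative helicase, and Cdc6 and Cdt1 load it. Mcm2 was at 83.3 CPM in treated knockout cells, 60.6 in treated wild-type, 86.6 in untreated knockout and 101 in untreated wild-type. Mcm3 was at 113 CPM in treated knockout cells, 86.4 in treated wild-type, 129 in untreated knockout and 163 in untreated wild-type. Both were highest in untreated wild-type and lowest in treated wild-type cells. Mcm4 stood at 61.9 CPM in treated knockout cells, 47.7 in treated wild-type, 66.4 in untreated knockout and 85.3 in untreated wild-type. Mcm5 stood at 121 CPM in treated knockout cells, 85.8 in treated wild-type, 135 in untreated knockout and 172 in untreated wild-type. Their order of libraries matched that of Mcm2 and Mcm3. Mcm6 had 138 CPM in treated knockout cells, 129 in treated wild-type, 158 in untreated knockout and 225 in untreated wild-type, and its treated libraries were the closest of the helicase subunits. Mcm7 had 99.2 CPM in treated knockout cells, 72.9 in treated wild-type, 101 in untreated knockout and 171 in untreated wild-type, the widest spread among them. Cdc6, under the 20 CPM minimum on average, was at 17.3 CPM in treated knockout cells, 14.9 in treated wild-type, 22.6 in untreated knockout and 23.1 in untreated wild-type. Its loading partner Cdt1 was at 40.3 CPM in treated knockout cells, 36.6 in treated wild-type, 53.1 in untreated knockout and 40.6 in untreated wild-type, highest in untreated knockout cells. Summed, the 8 licensing genes were at 674, 534, 751 and 981 CPM in treated knockout, treated wild-type, untreated knockout and untreated wild-type cells.

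Initiation factors come next. Cdc45, the helicase cofactor, was at 23.1 CPM in treated knockout cells, 14.2 in treated wild-type, 20.3 in untreated knockout and 37.5 in untreated wild-type. It was the only member more than 1.5-fold apart between genotypes in both arms, in opposite directions, although with the first listing of barcodes the untreated difference was short of that, at a log2 fold of -0.52. Gins2, a subunit of the GINS complex, was at 59.2 CPM in treated knockout cells, 45.5 in treated wild-type, 76.1 in untreated knockout and 96.6 in untreated wild-type. Mcm10, which helps fire origins, was under the minimum, at 10.1 to 16.9 CPM. Of the copying enzymes, the primase subunit Prim1 was at 51.7 CPM in treated knockout cells, 39.2 in treated wild-type, 58.1 in untreated knockout and 73.98 in untreated wild-type. Pold1, the catalytic subunit of polymerase delta, was at 31.96 CPM in treated knockout cells, 24.5 in treated wild-type, 38.6 in untreated knockout and 49.7 in untreated wild-type. Pola1, the catalytic subunit of polymerase alpha, was under the minimum, at 14.9 to 24.5 CPM. Cdc45, Gins2, Prim1 and Pold1 were each lowest in treated wild-type and highest in untreated wild-type cells, but the knockout libraries changed places for Cdc45.

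The sliding clamp and its partners include the member with the most UMIs, 2810417H13Rik. Pcna, the clamp, was at 106 CPM in treated knockout cells, 75.1 in treated wild-type, 87.5 in untreated knockout and 115 in untreated wild-type. Rfc3 and Rfc4 are subunits of the clamp loader. Rfc3 was at 52.1 CPM in treated knockout cells, 41.2 in treated wild-type, 55.01 in untreated knockout and 86.1 in untreated wild-type. Rfc4 was at 61.1 CPM in treated knockout cells, 51.7 in treated wild-type, 79.5 in untreated knockout and 138 in untreated wild-type, and the fold between the wild-type libraries was the largest of all members. 2810417H13Rik, which RefSeq names Pclaf and which encodes a small Pcna-binding protein, was at 563 CPM in treated knockout cells, 418 in treated wild-type, 706 in untreated knockout and 736 in untreated wild-type. Its 2 untreated libraries were nearly level, while Rfc4 was far lower in untreated knockout than in untreated wild-type cells. On the lagging strand, Fen1, which trims Okazaki fragments, was at 85.9 CPM in treated knockout cells, 64.4 in treated wild-type, 84.8 in untreated knockout and 114 in untreated wild-type. Lig1, which joins them, was at 91.9 CPM in treated knockout cells, 74.3 in treated wild-type, 114 in untreated knockout and 167 in untreated wild-type. Fen1 was at nearly the same level in both knockout libraries, and Lig1 was lower in the treated one.

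Nucleotide supply genes gave the largest summed difference between the untreated libraries of any role. Tyms, which makes thymidylate, was at 93.8 CPM in treated knockout cells, 78.5 in treated wild-type, 102 in untreated knockout and 166 in untreated wild-type. The ribonucleotide reductase subunits make deoxyribonucleotides. Rrm1, the large subunit, was at 78.9 CPM in treated knockout cells, 61.2 in treated wild-type, 96.3 in untreated knockout and 158 in untreated wild-type. Rrm2, the small subunit made in S phase, was at 146 CPM in treated knockout cells, 102 in treated wild-type, 136 in untreated knockout and 207 in untreated wild-type. Treated and untreated knockout cells were close for Rrm2, and treated wild-type cells were lowest for all 3. Dut, which keeps uracil out of DNA by breaking down dUTP, was at 381 CPM in treated knockout cells, 320.5 in treated wild-type, 484 in untreated knockout and 681 in untreated wild-type. Summed, the 4 genes were at 699.96, 562, 818 and 1213 CPM in treated knockout, treated wild-type, untreated knockout and untreated wild-type cells.

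The fork checkpoint is served by Tipin and Clspn. Tipin was at 167 CPM in treated knockout cells, 134 in treated wild-type, 195 in untreated knockout and 246 in untreated wild-type. Clspn was at 34.3 CPM in treated knockout cells, 23.4 in treated wild-type, 41.9 in untreated knockout and 50.1 in untreated wild-type. Both had the order of the sums. Of the chromatin genes, Uhrf1, which brings DNA methylation to new strands, was at 43.8 CPM in treated knockout cells, 39.2 in treated wild-type, 57.5 in untreated knockout and 76.5 in untreated wild-type. Chaf1b, a subunit of the histone chaperone CAF-1, was at 30.5 CPM in treated knockout cells, 25.7 in treated wild-type, 35.8 in untreated knockout and 50.1 in untreated wild-type. Hells, a chromatin remodeller, was at 65.05 CPM in treated knockout cells, 55.8 in treated wild-type, 47.9 in untreated knockout and 68.2 in untreated wild-type. It was the one member of the 30 lowest in untreated knockout cells. Slbp, which binds histone mRNA, was at 222.7 to 265.8 CPM, the narrowest spread. Ung, which removes uracil from DNA, was at 53.7 CPM in treated knockout cells, 45.4 in treated wild-type, 62.5 in untreated knockout and 81.2 in untreated wild-type, in the order of the sums.

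The G1/S switch genes behaved apart from the enzymes of the fork. E2f1, a transcription factor that drives many of the members, was at 37.4 CPM in treated knockout cells, 32.02 in treated wild-type, 40.8 in untreated knockout and 35.4 in untreated wild-type. Ccne1, cyclin E1, was at 45.1 CPM in treated knockout cells, 38.4 in treated wild-type, 51.5 in untreated knockout and 48.2 in untreated wild-type. Ccne2, cyclin E2, was under the minimum at 11.9 CPM in treated knockout cells, 10.96 in treated wild-type, 9.88 in untreated knockout and 8.24 in untreated wild-type. The untreated wild-type library, highest for nearly all fork enzymes, lay within the range of the others for E2f1 and Ccne1 and was lowest for Ccne2. The 3 genes summed to 94.5, 81.3, 102 and 91.9 CPM in treated knockout, treated wild-type, untreated knockout and untreated wild-type cells, and their log2 difference between untreated knockout and wild-type cells was 0.15 (-0.02 to 0.32), against -0.57 (-0.62 to -0.52) for the 4 nucleotide supply genes.

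Between untreated knockout and untreated wild-type CD8 T cells, 7 of the 30 members past the 20 CPM minimum were at least 1.5-fold lower in knockout and 0 were higher. Of all 4628 genes past the same minimum, 6.85% were lower and 7.89% higher by that much. The median member was at a log2 fold of -0.39, against -0.10 for all genes, and the intervals of 26 members lay below 0 and that of 1, Cdt1, above it. How many of all genes had intervals off 0 was not counted, here or in the comparisons below. With TMM scaling, which sets the median of all genes to 0.01, the median member was at -0.28, 5 members were lower, and of all genes 473 were higher and 191 lower, in place of 365 and 317. With each cell weighted equally 11 members were past 1.5-fold. The share of all genes with that weighting is not given here, so whether the members stand out in it cannot be read from this count. Cdc45 (-0.52) and Rfc3 (-0.57) were short of it with the first listing of barcodes, Rfc3 (-0.46) without cluster 13, and Rrm2 (-0.50) and Rfc3 (-0.54) with TMM. The 7 were Cdc45 at -0.89 (-1.20 to -0.58), Rfc4 at -0.79 (-0.95 to -0.63), Mcm7 at -0.75 (-0.89 to -0.61), Rrm1 at -0.72 (-0.86 to -0.57), Tyms at -0.70 (-0.84 to -0.56), Rfc3 at -0.65 (-0.84 to -0.45) and Rrm2 at -0.61 (-0.73 to -0.48). Cdt1 stood at 0.39 (0.14 to 0.64) and 2810417H13Rik at -0.06 (-0.12 to 0.00). Pcna, at -0.39 (-0.56 to -0.23), sat at the median of the list.

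These 7 members and most of the list are E2F targets in textbook accounts, so the 250 bases before each RefSeq start (GRCm38.p6, the assembly of mm10) were searched for 4 E2F-like words, TTTCCCGC, TTTCGCGC, TTTGCCGC and TTTGGCGC, on both strands. Windows were found for 30 of the 34 members, 35 windows in all, and none for Mcm4, Gins2, Tipin and Ccne2. At least 1 word was in 8 of 35 windows (22.9%), against 611 of 32851 windows of all RefSeq starts (1.86%) and 360 of 12289 windows (2.93%) with a GC content between the members' quartiles of 52.4% and 67.2%. The windows with a word belong to Mcm5, Mcm6, Mcm7, Cdc6, Uhrf1, Hells, Rfc3 and Pola1. Those of Cdc45, Rfc4, Rrm1, Tyms and Rrm2 do not hold these letters. The 4 below belong to the members with a word and the largest fold between the untreated genotypes among those past the minimum, read 5′ to 3′ on the gene's strand with the words in capitals, so that the position of the word in each can be seen.
Mcm7 promoter: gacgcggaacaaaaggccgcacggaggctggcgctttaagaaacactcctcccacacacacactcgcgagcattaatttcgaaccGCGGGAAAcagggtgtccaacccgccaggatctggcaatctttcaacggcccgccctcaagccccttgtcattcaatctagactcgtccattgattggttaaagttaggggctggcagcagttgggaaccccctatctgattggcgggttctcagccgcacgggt
Rfc3 promoter: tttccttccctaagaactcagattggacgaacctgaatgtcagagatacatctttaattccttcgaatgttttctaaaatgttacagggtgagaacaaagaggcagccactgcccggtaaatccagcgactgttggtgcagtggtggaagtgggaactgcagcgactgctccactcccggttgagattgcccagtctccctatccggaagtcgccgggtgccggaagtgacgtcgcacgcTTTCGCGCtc
Hells promoter: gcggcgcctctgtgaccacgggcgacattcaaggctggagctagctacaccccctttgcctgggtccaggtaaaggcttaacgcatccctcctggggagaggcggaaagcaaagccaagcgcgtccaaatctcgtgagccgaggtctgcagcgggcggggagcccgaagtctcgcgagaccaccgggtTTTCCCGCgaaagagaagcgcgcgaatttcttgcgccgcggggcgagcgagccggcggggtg
Mcm6 promoter: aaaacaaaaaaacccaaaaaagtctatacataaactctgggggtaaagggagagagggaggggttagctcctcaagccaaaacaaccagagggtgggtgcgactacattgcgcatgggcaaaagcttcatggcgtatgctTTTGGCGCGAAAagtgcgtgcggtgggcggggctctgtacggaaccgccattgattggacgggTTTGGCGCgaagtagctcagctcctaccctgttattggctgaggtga

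The Mcm7 window is chr5:138171884-138172133 on the minus strand and holds its word on the other strand, 165 bases before the start. The Rfc3 window is chr5:151651209-151651458, minus strand, with the word 10 bases before the start. The Hells window is chr19:38930740-38930989, plus strand, with the word 62 bases before the start. The Mcm6 window is chr1:128359706-128359955, minus strand, and holds 3 words, 2 of them overlapping in opposite orientation from 110 bases before the start and a further one 47 bases before it. The Hells window and most of the Mcm7 window lie inside the gene as RefSeq spans it, which begins further upstream than the start used here. The 4 members stood at -0.75, -0.65, -0.51 and -0.51 between untreated knockout and wild-type cells. Binding was not measured at any of these words.

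Between treated knockout and treated wild-type CD8 T cells all 30 members were higher in knockout, and the intervals of 25 lay above 0, but the differences were small. Only 1 member, Cdc45, reached 1.5-fold, at 0.70 (0.36 to 1.05), and 0 were lower by that much, against 1.06% of all genes higher and 1.45% lower. The median member was at 0.35 and the median of all genes at 0.09. With TMM scaling the median was 0.26, and of all genes 22 were higher and 88 lower by 1.5-fold, in place of 49 and 67. Cells weighted equally gave 2 members, and a minimum of 50 CPM, which Cdc45 misses, gave 0. The shares of all genes under these settings are not given here. Clspn followed at 0.55 (0.28 to 0.83), Rrm2 at 0.52 (0.39 to 0.65), Pcna at 0.49 (0.34 to 0.64) and Mcm5 at 0.49 (0.35 to 0.64). Mcm6 was nearest to no difference, at 0.10 (-0.03 to 0.22). E2f1 was at 0.23 (-0.02 to 0.47) and Ccne1 at 0.24 (0.01 to 0.46), within the range of the fork enzymes.

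Between treated and untreated wild-type CD8 T cells the difference was the widest of the 4. At least 1.5-fold lower with anti-PD-L1 were 25 of 30 members and 0 were higher, against 20.5% of all genes lower and 11.3% higher. The median member was at -0.94 and the median of all genes at -0.18. With TMM scaling the median was -0.73, 23 members were lower, and of all genes 791 were higher and 487 lower, in place of 522 and 950. Rfc4 was at -1.41 (-1.59 to -1.23), Cdc45 at -1.40 (-1.74 to -1.05), Rrm1 at -1.37 (-1.53 to -1.20) and Mcm7 at -1.23 (-1.38 to -1.07). The 5 members short of 1.5-fold were Ccne1 at -0.33 (-0.58 to -0.08), Hells at -0.29 (-0.50 to -0.08), Slbp at -0.26 (-0.36 to -0.15), Cdt1 at -0.15 (-0.41 to 0.12) and E2f1 at -0.15 (-0.43 to 0.14). This comparison uses the same untreated wild-type library as the untreated genotype comparison, so their shared leading genes are not independent.

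Between treated and untreated knockout CD8 T cells no member reached 1.5-fold in either direction, against 2.87% of all genes higher and 1.12% lower. The median member was at -0.19 and that of all genes at -0.01. The intervals of 15 members lay below 0 and those of 3, Pcna, Slbp and Hells, above it. Hells was at 0.44 (0.25 to 0.64) and Pcna at 0.27 (0.13 to 0.42). At the other end stood Cdt1 at -0.40 (-0.61 to -0.19), Uhrf1 at -0.39 (-0.60 to -0.19) and Rfc4 at -0.38 (-0.55 to -0.21). Whether the treatment difference itself differs between genotypes was not tested, since each genotype has 1 library per arm.

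**Figure D3:**
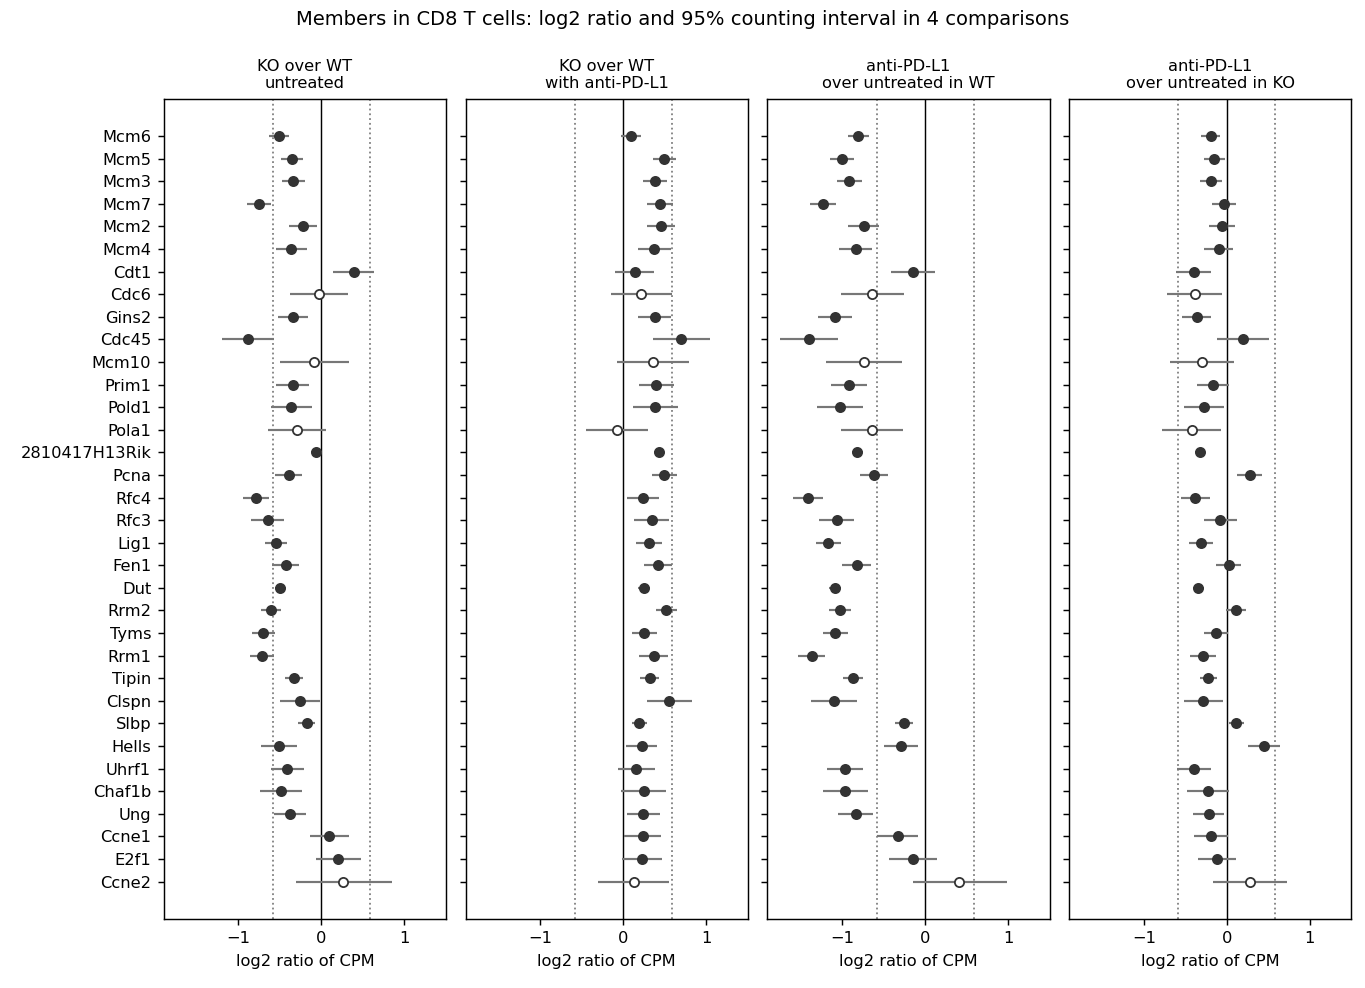
Log2 ratio of CPM for each member in CD8 T cells (points; open where the mean is under 20 CPM) with its 95% counting interval (bars), in the 4 comparisons, with dotted lines at 1.5-fold. Points lie mostly left of 0 between the untreated genotypes, right of 0 between the treated genotypes, far left for anti-PD-L1 in wild-type and near 0 for anti-PD-L1 in knockout.

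The clusters allow a closer comparison, since libraries differ in which CD8 T cell states they hold. The untreated wild-type cells were mostly in clusters 12, 13 and 14, with 429, 429 and 199 of its 1124 cells, and of these clusters 12 and 14 also held at least 50 untreated knockout cells, 50 and 89 of them. In cluster 14, 58.4% (47.5% to 68.8%) of untreated knockout and 57.5% (48.6% to 66.0%) of untreated wild-type cells were high, and high cells held 17.1 and 16.6 member UMIs. Thinning had left out 65 of the 199 untreated wild-type cells of this cluster and 0 of the 89 untreated knockout cells. Without thinning, and so without equal depth, the shares were 82.0% in untreated knockout and 61.8% in untreated wild-type cells. The members summed to 4564 CPM in untreated knockout and 4517 in untreated wild-type cells of cluster 14, a log2 difference of 0.01 (-0.06 to 0.09). Of the 30 members 2 were at least 1.5-fold higher and 3 lower in knockout there, against 12.3% of all genes higher and 12.9% lower at these lower counts. Mcm6 at -0.57 (-0.97 to -0.18) and Mcm7 at -0.52 (-0.95 to -0.10) had intervals below 0, and 2810417H13Rik at 0.44 (0.27 to 0.61) lay above 0.

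In cluster 12, 47 of 50 untreated knockout and 348 of 429 untreated wild-type cells were deep enough to be thinned. Of these, 61.7% (46.4% to 75.5%) of untreated knockout and 71.0% (65.9% to 75.7%) of untreated wild-type cells were high, with overlapping intervals, and high cells held 15.2 and 15.6 member UMIs. The members summed to 4548 CPM in untreated knockout and 4838 in untreated wild-type cells of cluster 12, a log2 difference of -0.09 (-0.18 to 0.0019). There 1 member was at least 1.5-fold higher and 5 lower in knockout, against 10.3% of all genes higher and 17.8% lower. The intervals of 4 lay below 0: Hells at -1.62 (-3.09 to -0.46), Rfc4 at -0.90 (-1.74 to -0.17), Mcm7 at -0.85 (-1.54 to -0.22) and Rrm1 at -0.62 (-1.30 to -0.0036). In both clusters the sum was nearer to level than the -0.37 (-0.39 to -0.34) over all CD8 T cells of the 2 libraries, and Mcm7 was lower in untreated knockout in both. The 2 clusters hold only 50 and 89 of the 1556 untreated knockout CD8 T cells. In cluster 14, 93.3% of thinned untreated knockout cells were mitosis-high, against 53.7% of all thinned untreated knockout CD8 T cells. Of the thinned untreated wild-type cells of cluster 14, 87.3% were mitosis-high. The near-level sums thus cover few of the knockout cells, and cluster 14 was rich in mitosis mRNA in both libraries. Whether that sets its near-level shares was not tested. The globin gene Hbb-bt was among the 10 leading genes of cluster 13. Erythroid markers summed to 277, 661, 484 and 141 CPM in CD8 T cells of treated knockout, treated wild-type, untreated knockout and untreated wild-type, and 12.4%, 20.5%, 9.38% and 20.1% of the cells held a UMI of them.

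Between the treated libraries, high cells were compared in 4 shared clusters. In cluster 3 they made up 52.9% (43.6% to 62.0%) of treated knockout and 43.3% (33.3% to 53.8%) of treated wild-type cells, and in cluster 6 36.2% (31.6% to 40.9%) and 27.6% (23.2% to 32.4%) of the same libraries. In cluster 4 the shares were 13.2% (9.51% to 17.7%) in treated knockout and 11.3% (8.30% to 14.8%) in treated wild-type cells, and in cluster 1 3.16% (0.66% to 8.95%) and 4.74% (2.39% to 8.33%). The intervals overlap in each cluster, least in cluster 6. Untreated knockout cells were high in 59.4%, 35.4%, 19.4% and 8.08% of clusters 3, 6, 4 and 1. Across clusters and libraries the share ran between 3.16% and 71.0%, while high cells, where there were at least 20 of them, held means of 13.8 to 17.1 member UMIs. Part of that narrow range comes from the line at 10 UMIs, as above.

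**Figure D4:**
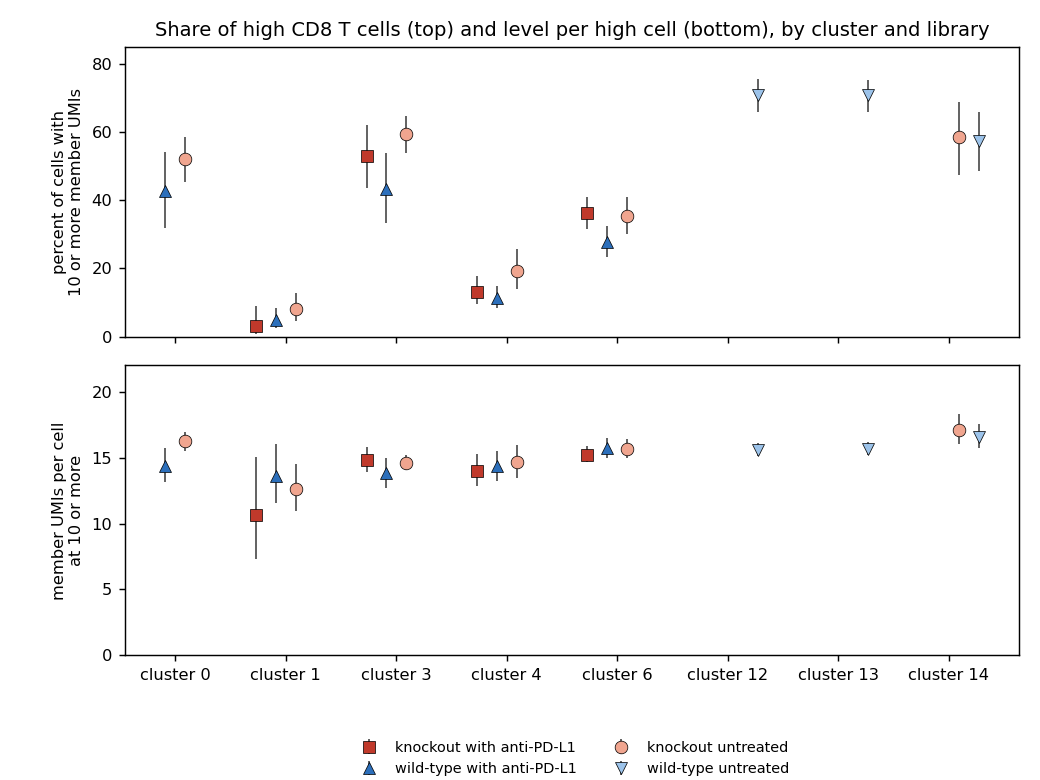
Share of CD8 T cells with at least 10 member UMIs (top, percent, exact 95% intervals) and mean member UMIs per such cell (bottom, 95% intervals) for each cluster and library with at least 50 cells. The share varies widely between clusters, the level per high cell little, and in cluster 14 the 2 untreated libraries sit side by side at 58.4% and 57.5%. Part of the likeness in level comes from the line, which leaves out cells under 10 UMIs. Thinning left out 65 untreated wild-type and 0 untreated knockout cells of cluster 14.

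A further 4 gene lists were read in the same CD8 T cells. Of 59 other replication genes 39 passed the minimum, and between the untreated genotypes 0 were at least 1.5-fold higher and 7 lower in knockout, led by the histone chaperone Nasp (112 CPM in untreated knockout, 214 in untreated wild-type) and Rnaseh2b (72.3 and 127). Their medians in the 4 comparisons, in the order used above, were -0.39, 0.25, -0.78 and -0.18, near those of the members, and 25 were lower with anti-PD-L1 in wild-type cells. Of 50 mitosis genes 43 passed. In knockout 16 were lower untreated, led by Plk1 (29.4 CPM in untreated knockout, 74.0 in untreated wild-type), 5 were higher treated, led by Ccnb1 (55.3 CPM in treated knockout, 33.2 in treated wild-type), and 37 were lower with anti-PD-L1 in wild-type cells. Of 15 G1/S regulators 8 passed, and between the untreated genotypes 2 were at least 1.5-fold higher in knockout, the genes of cyclin D2 and Myc, which drive cells toward S phase, and 1, Cdk6, was lower. Ccnd2 was at 224 CPM in untreated knockout and 116 in untreated wild-type cells, and Myc at 69.3 and 37.7. Of 14 cell cycle inhibitors 7 passed, and 3 were at least 1.5-fold higher in untreated knockout. Btg2, an antiproliferative gene, was at 339.7 CPM in untreated knockout and 99.5 in untreated wild-type cells, its relative Btg1 at 488 and 217, and Cdkn1a, which encodes the CDK inhibitor p21, at 35.01 and 11.1. The same 3 were also higher with anti-PD-L1 in wild-type cells, where Btg2 was at 527 CPM in treated and 99.5 in untreated cells, with the same untreated library as the basis. Neither difference was particular to CD8 T cells. In macrophage-like cells, which come from the host, Btg2, Cdkn1a and Btg1 had log2 folds of 1.51, 1.17 and 0.93 between the untreated genotypes. With anti-PD-L1 in wild-type tumours these were 1.91, 1.41 and 1.43.

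Melanoma RNA was measured in the CD8 T cells because the untreated wild-type library held so many melanoma-like cells. The 9 melanoma markers summed to 19.0, 28.0, 33.5 and 114 CPM in CD8 T cells of treated knockout, treated wild-type, untreated knockout and untreated wild-type, against 18760 to 21360 CPM in melanoma-like cells, which puts melanoma RNA at 0.0909%, 0.131%, 0.169% and 0.607% of the UMIs. At that share it carries 1.26, 3.29, 3.68 and 15.5 CPM of the members, of the sums given above. Leaving out CD8 T cells with 3 or more melanoma marker UMIs gave high shares of 30.1%, 21.6%, 40.4% and 68.1%.

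Macrophage-like cells, which come from the host, numbered 181, 177, 407 and 204 in the treated knockout, treated wild-type, untreated knockout and untreated wild-type tumours, and 10 macrophage markers summed to 37804, 35301, 37628 and 42772 CPM in them. Tumour macrophages divide less than activated T cells, and the members summed to 848, 648, 850.4 and 1463 CPM. High cells were few, 9, 3, 15 and 13 of them. The order of the libraries was counted for the members only, not for all genes. Macrophage-like cells of the untreated wild-type tumours were the highest for 32 of 34 members and those of treated wild-type the lowest for 28. By their marker genes, RNA of CD8 T cells and melanoma cells in these cells carries 165, 279.9, 405 and 554 CPM of the members, which leaves 683, 368, 445 and 909 CPM.

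Of 20 members past the minimum in macrophage-like cells, 15 were at least 1.5-fold lower and 0 higher in untreated knockout than in untreated wild-type tumours (12.5% of all 4658 genes lower, 12.7% higher), with a median of -0.88 against -0.05 for all genes. Between treated knockout and treated wild-type tumours 6 were higher and 0 lower (7.02% and 5.3% of all genes), with a median of 0.30 against 0.07. With anti-PD-L1 against without it in wild-type tumours, 18 were lower (15.7% of all genes) and 0 higher (14%), with a median of -1.28 against -0.08. With anti-PD-L1 against without it in knockout tumours, 1 was higher and 1 lower (5.8% and 3.41% of all genes), with a median of 0.04 against 0.05, a median whose sign turned with the first listing of barcodes (-0.10), TMM (-0.0054) and equal weights (-0.072). The full order of the CD8 T cell sums held for 12 of the 34 members here. The part of RNA from other cells in the differences that remain was not tested.

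Among the members that differed, the clamp Pcna was at 64.6 CPM in treated knockout tumours, 38.4 in treated wild-type, 41.4 in untreated knockout and 67.7 in untreated wild-type. Mcm2 was at 20.8 CPM in treated knockout tumours, 12.2 in treated wild-type, 17.2 in untreated knockout and 36.8 in untreated wild-type. Mcm3 was at 34.6 CPM in treated knockout tumours, 32.7 in treated wild-type, 40.96 in untreated knockout and 54.5 in untreated wild-type. Pcna was the one member at least 1.5-fold higher with anti-PD-L1 in knockout tumours. Mcm5 was at 31.1 CPM in treated knockout tumours, 24.5 in treated wild-type, 26.997 in untreated knockout and 51.5 in untreated wild-type. Mcm7 was at 23.1 CPM in treated knockout tumours, 19.6 in treated wild-type, 22.3 in untreated knockout and 50.05 in untreated wild-type. Cdt1 was at 24.8 CPM in treated knockout tumours, 8.98 in treated wild-type, 17.7 in untreated knockout and 35.3 in untreated wild-type. In these cells Cdt1 followed the other licensing genes, unlike in CD8 T cells. Gins2 was at 27.7 CPM in treated knockout tumours, 16.3 in treated wild-type, 25.1 in untreated knockout and 54.5 in untreated wild-type. Tyms was at 18.4 CPM in treated knockout tumours, 19.6 in treated wild-type, 15.8 in untreated knockout and 52.99 in untreated wild-type. Rrm1 was at 26.5 CPM in treated knockout tumours, 21.2 in treated wild-type, 23.7 in untreated knockout and 57.4 in untreated wild-type. All 3 were highest in untreated wild-type tumours. Rrm2 was at 15.6 CPM in treated knockout tumours, 17.96 in treated wild-type, 19.5 in untreated knockout and 45.6 in untreated wild-type. Dut was at 38.05 CPM in treated knockout tumours, 55.5 in treated wild-type, 61.9 in untreated knockout and 107 in untreated wild-type, and was lower with anti-PD-L1 in both genotypes. Rfc3 was at 20.8 CPM in treated knockout tumours, 17.1 in treated wild-type, 20.5 in untreated knockout and 39.7 in untreated wild-type. Rfc4 was at 16.1 CPM in treated knockout tumours, 13.1 in treated wild-type, 14.9 in untreated knockout and 47.1 in untreated wild-type, with a log2 fold of -1.66 (-2.41 to -0.91) between the untreated genotypes. 2810417H13Rik was at 104 CPM in treated knockout tumours, 54.7 in treated wild-type, 120.1 in untreated knockout and 191 in untreated wild-type. Fen1 was at 34.01 CPM in treated knockout tumours, 27.8 in treated wild-type, 36.8 in untreated knockout and 51.5 in untreated wild-type. Lig1 was at 34.01 CPM in treated knockout tumours, 19.6 in treated wild-type, 41.9 in untreated knockout and 51.5 in untreated wild-type. Treated wild-type tumours were lowest for these 3. Tipin was at 32.9 CPM in treated knockout tumours, 31.02 in treated wild-type, 41.9 in untreated knockout and 58.9 in untreated wild-type. Slbp was at 78.4 CPM in treated knockout tumours, 72.7 in treated wild-type, 57.7 in untreated knockout and 97.1 in untreated wild-type. E2f1 was at 28.2 CPM in treated knockout tumours, 22.04 in treated wild-type, 28.9 in untreated knockout and 51.5 in untreated wild-type. Unlike in CD8 T cells, E2f1 was highest in untreated wild-type tumours, at -0.84 (-1.46 to -0.19) between the untreated genotypes.

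Melanoma-like cells stand for the B16-OVA line, which all groups share, so genotype here names the transferred T cells. They numbered 50, 69, 190 and 929 in treated knockout, treated wild-type, untreated knockout and untreated wild-type tumours. The members summed to 1387, 2509, 2173 and 2548 CPM. High cells made up 14% (5.82% to 26.7%), 17.6% (9.47% to 28.8%), 18.7% (13.4% to 25.1%) and 21.2% (18.6% to 24.0%), so that the shares of single cells could not be told apart at these numbers. The treated knockout tumours were lowest for 32 of 34 members, a count not made over all genes. Their melanoma-like cells were also the deepest, with a median of 31763 UMIs against 25574, 13918 and 10199 in the other 3, and the sums weight each cell by its UMIs.

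**Figure D5:**
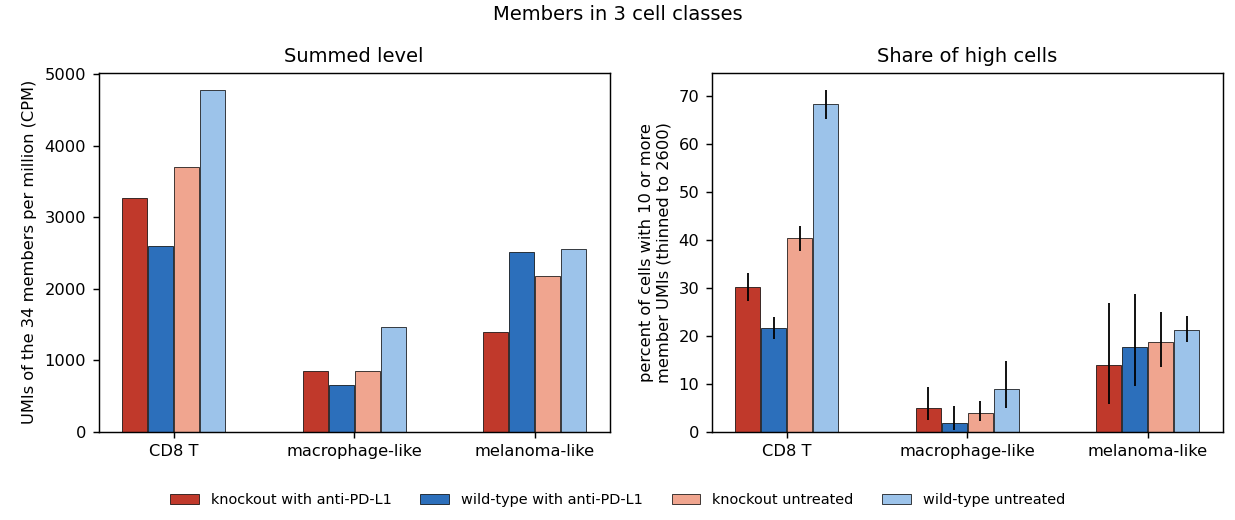
Summed level of the 34 members (left, CPM) and share of cells with at least 10 member UMIs after thinning to 2600 UMIs (right, percent, exact 95% intervals) in CD8 T, macrophage-like and melanoma-like cells of the 4 libraries. CD8 T cells have the highest sum in every library, narrowly so in treated wild-type (2598 CPM, against 2509 in melanoma-like cells), and only in CD8 T cells do the intervals of the 4 shares all lie apart. Intervals widen where cells are few. Thinned CD8 T cells numbered 905 to 1405 per library, macrophage-like cells 146 to 384 and melanoma-like cells 50 to 918.

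Of 27 members past the minimum in melanoma-like cells, 21 were at least 1.5-fold lower and 0 higher in treated knockout than in treated wild-type tumours (8.75% of all 5506 genes lower, 6.7% higher), with a median of -0.80 against -0.02 for all genes. Between treated and untreated knockout tumours 15 were lower and 0 higher (4.54% of all genes lower, 2.74% higher), with a median of -0.63 against -0.06. Both comparisons rest on the same 50 cells. Between untreated knockout and untreated wild-type tumours 4 were lower and 0 higher (4.25% of all genes lower, 6.36% higher), with a median of -0.26 against 0.00. Between treated and untreated wild-type tumours no member reached 1.5-fold (3.51% of all genes higher, 2.76% lower), with a median of -0.04 against -0.02, which was -0.33 with cells weighted equally. Melanoma-like cells were thus lower with anti-PD-L1 in the knockout arm, where CD8 T cells held no member past 1.5-fold, and held none in the wild-type arm, where CD8 T cells held 25.

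Rfc4 was the member furthest apart in melanoma-like cells, at 18.98 CPM in treated knockout tumours, 64.7 in treated wild-type, 42.5 in untreated knockout and 76.8 in untreated wild-type. Its log2 fold between the treated genotypes was -1.77 (-2.40 to -1.18). Rfc3 was at 35.4 CPM in treated knockout tumours, 57.4 in treated wild-type, 47.2 in untreated knockout and 72.6 in untreated wild-type. Of the licensing genes, Mcm2 was at 36.1 CPM in treated knockout tumours, 79.8 in treated wild-type, 80.3 in untreated knockout and 93.4 in untreated wild-type. Mcm3 was at 44.3 CPM in treated knockout tumours, 105 in treated wild-type, 70.3 in untreated knockout and 102 in untreated wild-type. Mcm4 was at 17.7 CPM in treated knockout tumours, 30.2 in treated wild-type, 26.1 in untreated knockout and 32.1 in untreated wild-type. Each was lowest in treated knockout tumours. Mcm5 was at 25.3 CPM in treated knockout tumours, 58.9 in treated wild-type, 38.8 in untreated knockout and 47.5 in untreated wild-type. Mcm6 was at 35.4 CPM in treated knockout tumours, 83.9 in treated wild-type, 59.6 in untreated knockout and 97.1 in untreated wild-type. Mcm7 was at 19.6 CPM in treated knockout tumours, 52.7 in treated wild-type, 40.2 in untreated knockout and 49.9 in untreated wild-type. All 6 helicase subunits thus shared that low point. Cdt1 was at 24.7 CPM in treated knockout tumours, 74.6 in treated wild-type, 47.5 in untreated knockout and 62.9 in untreated wild-type, and so followed the helicase it loads. Tyms was at 58.2 CPM in treated knockout tumours, 122 in treated wild-type, 90.03 in untreated knockout and 135 in untreated wild-type. Rrm1 was at 49.98 CPM in treated knockout tumours, 106 in treated wild-type, 82.3 in untreated knockout and 107 in untreated wild-type. Nucleotide supply had the same low point. Rrm2 was at 80.98 CPM in treated knockout tumours, 223 in treated wild-type, 162 in untreated knockout and 229 in untreated wild-type. Dut was at 120.2 CPM in treated knockout tumours, 190.3 in treated wild-type, 176 in untreated knockout and 199.8 in untreated wild-type. Prim1 was at 35.4 CPM in treated knockout tumours, 67.3 in treated wild-type, 62.9 in untreated knockout and 69.3 in untreated wild-type. These 3 were close in both wild-type libraries. Fen1 was at 25.9 CPM in treated knockout tumours, 50.6 in treated wild-type, 37.8 in untreated knockout and 41.7 in untreated wild-type. Tipin was at 75.3 CPM in treated knockout tumours, 117 in treated wild-type, 124 in untreated knockout and 116 in untreated wild-type. 2810417H13Rik was at 187 CPM in treated knockout tumours, 292 in treated wild-type, 304 in untreated knockout and 271 in untreated wild-type. Tipin and 2810417H13Rik differed little among the other 3 libraries, while Fen1 was highest in treated wild-type tumours. Ung was at 14.6 CPM in treated knockout tumours, 24.5 in treated wild-type, 33.5 in untreated knockout and 31.9 in untreated wild-type. Uhrf1 was at 27.8 CPM in treated knockout tumours, 70.4 in treated wild-type, 53.9 in untreated knockout and 52.3 in untreated wild-type. Chaf1b was at 26.6 CPM in treated knockout tumours, 46.4 in treated wild-type, 36.5 in untreated knockout and 55.1 in untreated wild-type. Slbp completed the set, at 84.1 CPM in treated knockout tumours, 136 in treated wild-type, 116 in untreated knockout and 123 in untreated wild-type. Ccne1 and E2f1 were nearest to no difference between the treated genotypes among the members past the minimum, at log2 folds of 0.01 (-0.48 to 0.49) and -0.14 (-0.54 to 0.25). Hells, Pcna, Gins2 and Lig1 were also short of 1.5-fold there, at -0.41, -0.45, -0.48 and -0.49.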

How the data were processed

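Single-cell RNA was profiled in 4 libraries with 10x Chromium 3′ v2 chemistry, per the labels, and the deposited tables hold raw UMI counts per cell and gene as the authors made them. The submitters' processing notes name mm10, but the step that made these tables is not given in the sources used here. Another 8 RNA and 8 ATAC samples of the series, 20 in all, are not analysed here. Most barcodes stand 2 times in a table; the second listing was used, and 99.65% to 100.0% of the first listing's barcodes are in it. Cells with at least 500 genes and at most 10% mitochondrial UMIs were kept, 7398 in all. They were clustered with scanpy 1.11.5 (2000 variable genes, 30 components, 15 neighbours, Leiden at resolution 1.0, igraph 0.11.9), leaving out the members and other cell cycle genes, into 15 clusters, of which 8 were CD8 T cells (5029 cells). No doublet caller was run.

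UMIs were summed per library and class and scaled to a total of 1000000 (CPM). Ratios have exact conditional binomial intervals, shares exact Clopper-Pearson intervals and UMIs per cell exact Poisson intervals, all at 95% and for counting error only. A member counted as different at a mean of at least 20 CPM and 1.5-fold, with no test, since each group is 1 library. For shares of cells, each cell was thinned to 2600 UMIs, leaving out 469 CD8 T cells. Scripts were tested on simulated data (Python 3.11.15, numpy 2.4.6, scipy 1.17.1, matplotlib 3.10.9).

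Named with values were members past 1.5-fold in any comparison, a fixed set of core members, and at most 4 genes per other list and comparison, by size of fold. Hells, Mcm10 and Pola1, which neither rule names, and the CD8 T values of Slbp and Cdt1 complete the account of the list. The members and all lists were chosen with earlier results of these data known. Alternatives were another listing, filter, clustering, scaling, weight of cells, minimum level, line and thinning depth.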

Additional observations from a re-analysis of the deposited data

Results flagged for a closer look

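In CD8 T cells the median member lay on opposite sides of no difference in the 2 arms: the log2 ratio of knockout over wild-type was -0.39 untreated and 0.35 with anti-PD-L1. Cdc45, the helicase cofactor, showed the same with the largest size, at -0.89 untreated and 0.70 with anti-PD-L1. Macrophage-like cells of the same tumours had medians of -0.88 untreated and 0.30 with anti-PD-L1. Each was picked out because the sign turned between the arms. The difference between the arms was not tested, since every group is 1 library.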

How the results depend on the processing

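No paired analysis was possible because each single-cell group is 1 library and the samples that share replicate numbers are not analysed here; for the same reason no replicate could be left out. Of single-member values under the alternatives, 377 kept their side of 1.5-fold and 10 lost it with the same sign: between the untreated genotypes Cdc45 (-0.52) and Rfc3 (-0.57) with the first listing of barcodes, Rfc3 (-0.46) without cluster 13, and Rrm2 (-0.50) and Rfc3 (-0.54) with TMM; between the wild-type libraries Pcna (-0.51) with the first listing, Pcna (-0.53) and Ung (-0.49) without cluster 13, and Pcna (-0.41) and Mcm2 (-0.54) with TMM. The wild-type median with and without anti-PD-L1 was -0.73 with TMM and -1.20 with cells weighted equally. Equal weights gave 11 members between the untreated and 2 between the treated genotypes, and a minimum of 50 CPM gave 0 between the treated ones, since Cdc45 lies under it. The shares of all genes under these settings are not given here. For treated knockout, treated wild-type, untreated knockout and untreated wild-type CD8 T cells, a line at 5 UMIs gave shares of 51.6%, 40.5%, 65.4% and 90.9% and levels of 11.6, 11.1, 12.2 and 13.6 UMIs, a line at 20 UMIs gave 5.06%, 3.22%, 6.41% and 14.4% and 22.3, 23.7, 23.2 and 23.1 UMIs, and thinning to 1500 UMIs with a line at 6 gave levels of 9.33, 8.93, 9.11 and 9.47 UMIs and an untreated wild-type share of 58.9%. The first listing gave 15.5 UMIs per high treated knockout cell. Cluster 14 alone, chosen after seeing the data like the setting without cluster 13, gave 58.4% and 17.1 UMIs in untreated knockout and 57.5% and 16.6 UMIs in untreated wild-type cells. Without thinning its shares were 82.0% in untreated knockout and 61.8% in untreated wild-type cells. The macrophage-like median with anti-PD-L1 in knockout turned to -0.10 with the first listing, -0.0054 with TMM and -0.072 with equal weights, and the melanoma-like one in wild-type was -0.33 with equal weights. The cause of these changes was not tested. Depth limits members under 20 CPM and the few treated melanoma-like cells.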
